A study of Mus musculus with 12 samples.

Results

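The 32 genes described here mark radial glia, neural stem cells and astrocytes, and their RNA was measured in the hippocampus of mouse pups. They were chosen by name from what is known of these cells, with earlier results of these data also known. All 32 were among the 29454 genes of the deposited expression table. RNA depleted of ribosomal RNA was sequenced from 12 libraries of C57/BL6 strain. The 3 WT libraries are of pups that carry neither allele. The 3 CAMK libraries are of pups that carry the CaMKIIα-tTA driver, in which a promoter of forebrain excitatory neurons makes the tetracycline transactivator. The 6 CX3CL1-ct libraries are of pups that carry this driver together with the Tg-CX3CL1-ct transgene, for the C-terminal part of the chemokine CX3CL1. CAMK therefore shares the driver with CX3CL1-ct. The pups were littermates. The transgenic line had been crossed to C57BL/6J for 6 generations. The labels give the age as P4 and the series' design text as P0. They do not say that each library is a separate animal, so a p-value reflects the spread among these libraries alone, which may be technical.

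Radial glia are the stem cells of the developing brain: they line the ventricle, divide to give neurons, and many later turn into astrocytes. In the hippocampus some of them settle in the dentate gyrus, where they go on making neurons after birth. Astrocytes clear glutamate from synapses, turn it into glutamine, buffer ions and water, and are joined to each other by gap junctions. The 2 cell types share many genes, so in whole tissue the RNA of Slc1a3 or Fabp7 comes from both. In bulk tissue, fewer cells of a type and less RNA per cell cannot be told apart.

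The members fall into 3 roles: 11 transcription factors of progenitors, 8 genes of the radial glia cytoskeleton, RNA binding and cell surface, and 13 genes of astrocyte transport, metabolism and coupling. Promoter sequences were found for 26 of the 32 in RefSeq (GRCm38.p6). Those of 3 members are shown because these genes had the smallest unadjusted p of the 26 in a comparison below (Gjb6, Slc1a3) or were highest in the same 3 libraries as Pax6 (Glul). Each run is the 150 bases before the annotated start, written 5′ to 3′ on the gene's strand. Capitals mark the letters TGGGTGG or their reverse complement CCACCCA, a core of the site bound by GLI factors. Gjb6 lies on the minus strand (chr14:57133612-57133761), Slc1a3 on the minus strand (chr15:8710808-8710957) and Glul on the plus strand (chr1:153899779-153899928).
Gjb6: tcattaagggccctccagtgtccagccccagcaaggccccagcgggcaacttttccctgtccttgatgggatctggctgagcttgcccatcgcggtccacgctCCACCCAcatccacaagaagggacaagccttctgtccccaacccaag
Slc1a3: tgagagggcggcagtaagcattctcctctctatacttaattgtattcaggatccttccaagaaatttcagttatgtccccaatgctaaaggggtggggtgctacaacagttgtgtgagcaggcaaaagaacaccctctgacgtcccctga
Glul: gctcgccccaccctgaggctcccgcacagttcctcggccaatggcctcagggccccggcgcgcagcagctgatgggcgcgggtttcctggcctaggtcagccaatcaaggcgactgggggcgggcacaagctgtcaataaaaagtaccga

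Over the 250 bases before the start, 4 short motifs were searched on both strands in 33 promoters of the 26 members and in 32851 promoters of all genes. The GLI letters were in 12.1% of the members' promoters and 8.11% of all. TGGGAA, which lies in sites of RBPJ, the DNA-binding partner of Notch, was in 42.4% against 21.6%. TTGGCA, part of the site of the nuclear factor I family to which Nfia and Nfib belong, was in 6.06% against 12.3%. AACAAT, a core of SOX sites, was in 3.03% against 9.42%. TGGGTGG ends in the letters TGG, with which TGGGAA begins, so their sites can overlap. None of the 4 lies in the stretches shown for Slc1a3 and Glul.

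Expression was deposited as FPKM, the number of fragments of a gene divided by its transcript length and by the size of the library. The unit is per length, so the levels of different genes can be compared. Of the 32 members, 6 had a mean over the 12 libraries of at least 100 FPKM, 17 of 10 to 100 and 9 below 10. Fabp7, the fatty acid binding protein of radial glia, was the highest, with a WT mean of 642 ± 45.2 FPKM (SD, n = 3). The astrocyte secreted protein Sparcl1 (168 ± 31.7), glutamine synthetase Glul (145 ± 17.6), the glutamate transporter Slc1a3 (138 ± 6.66), the receptor phosphatase Ptprz1 (128 ± 11.5) and the glutamate transporter Slc1a2 (120 ± 19.1) followed. The WT values of these 5 overlap between neighbours in that order. The transcription factors Nr2e1, Gli3 and Tfap2c, at WT means of 2.36 ± 0.243, 2.25 ± 0.115 and 1.36 ± 0.0731 FPKM, and the gap junction protein Gjb6, at 1.11 ± 0.248 FPKM, were the lowest in WT. All but Gjb6 and Tfap2c were at 1 FPKM or more in all 12 libraries, so markers of both cell types were detected in every library.

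**Figure D1:**
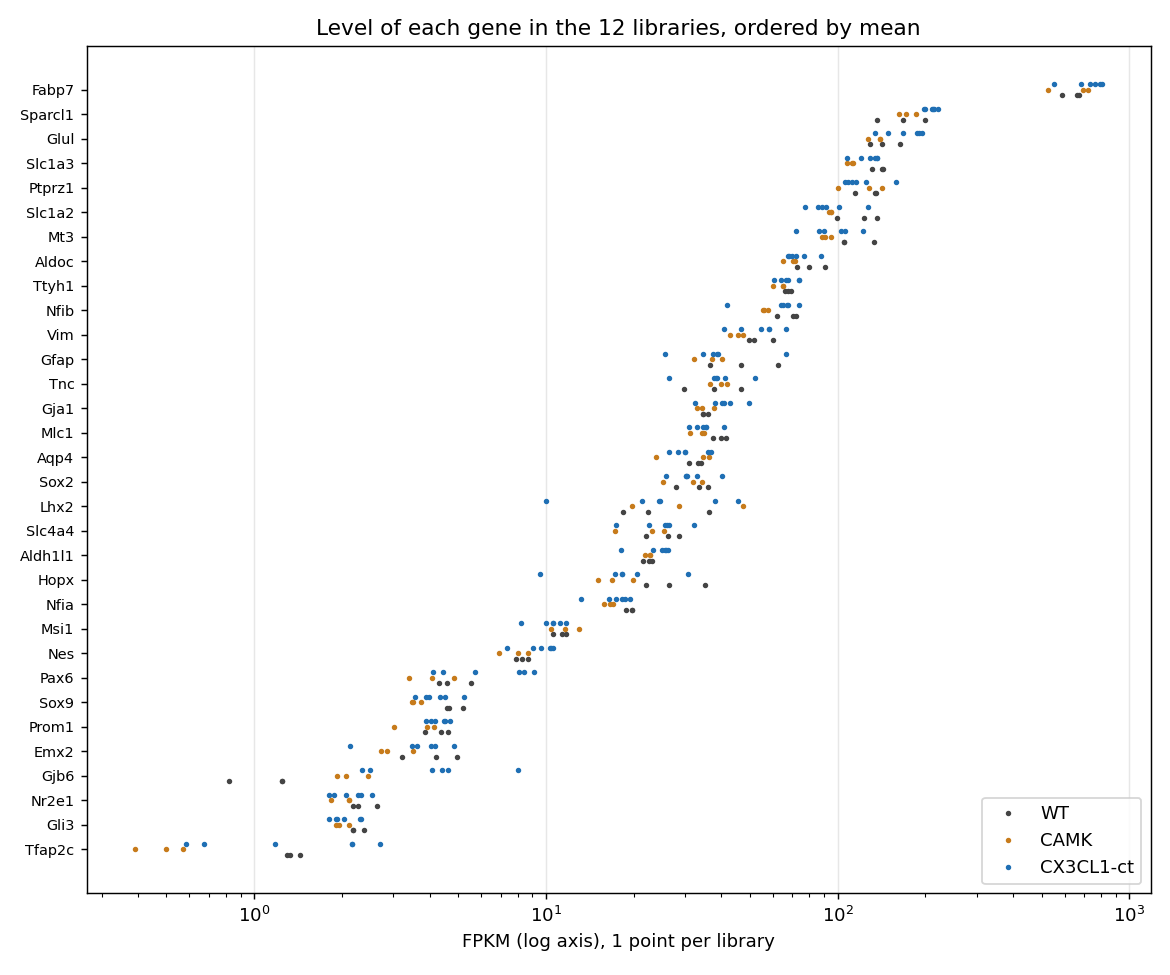
FPKM of each of the 32 genes on a log axis, with 1 point per library coloured by group and genes ordered by their mean over 12 libraries. Fabp7 stands alone at the top, and the widest spreads are those of Gjb6, Tfap2c, Lhx2 and Hopx.

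The highest library exceeded the lowest by at most 2-fold for 25 members. The other 7 were Gjb6 (9.78-fold), Tfap2c (6.89), Lhx2 (4.74), Hopx (3.68), Pax6 (2.68), Gfap (2.60) and Emx2 (2.34), of which 5 are transcription factors. The tightest was Ttyh1, a membrane protein of radial glia, at 1.23-fold.

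Across the libraries as a whole, the summed FPKM was 552481 to 659362 and 15318 to 15861 genes reached 1 FPKM. The number of reads behind a value is not known from the table. The libraries CX3CL1-ct 1 to 3 stand apart: the median absolute deviation of the log2 ratio between any 2 of them was 0.0759 to 0.101 over 3623 genes, against 0.108 to 0.274 for all other pairs within a group. Whether they share an animal is not stated, so results that rest on them are given with and without them. A list of 18 striatal genes had a mean log2(FPKM + 1) of 4.28 in WT 2, 4.0 in CX3CL1-ct 5 and 3.88 in WT 3, and 2.12 to 2.84 in the other 9. A list of 13 genes of meninges and fibroblasts was at 1.97 to 2.53 in WT, 2.57 to 2.78 in CAMK and 2.68 to 3.65 in CX3CL1-ct, with sums of 57.1 to 90.9, 96.0 to 109 and 98.7 to 224 FPKM. None of the genes of either list was at 0 in every library.

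**Figure D2:**
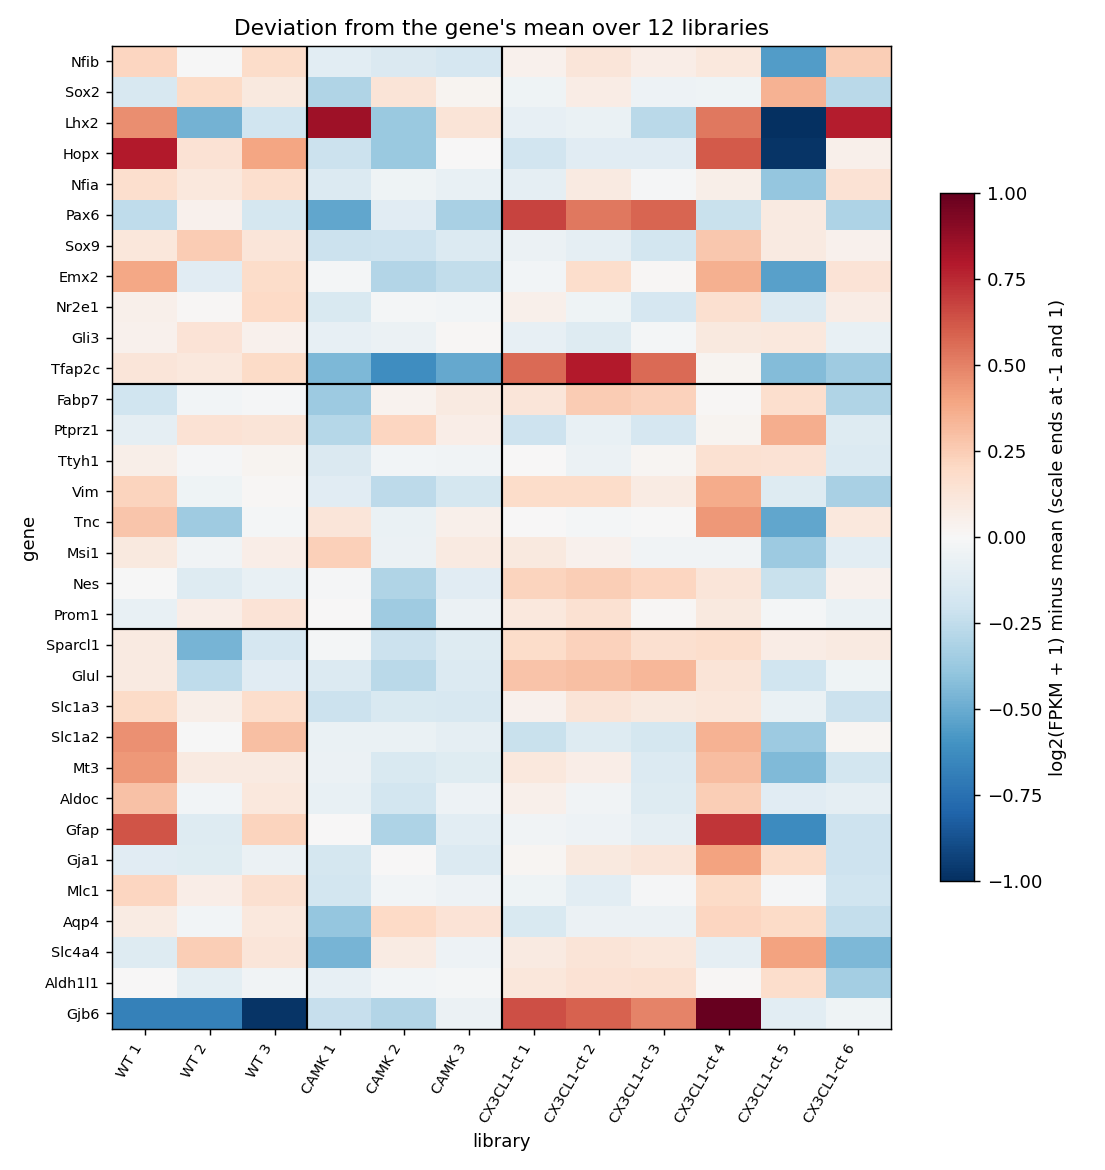
Log2(FPKM + 1) of each gene (vertical axis) in each library (horizontal axis) minus the gene's mean over the 12 libraries, in red where higher and blue where lower. Lines part the 3 groups and the 3 roles. The CAMK columns are mostly blue, CX3CL1-ct 4 mostly red, and Pax6 and Tfap2c are red in CX3CL1-ct 1 to 3.

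No member passed the threshold of 0.05 for the adjusted p (limma, Benjamini-Hochberg over 16503 genes) in any of the 3 comparisons. Differences are given on the log2(FPKM + 1) scale, on which changes of low genes come out too small. At an unadjusted p under 0.05 there were 7 members in CX3CL1-ct against CAMK, 4 in CX3CL1-ct against WT and 4 in CAMK against WT. That is 21.9%, 12.5% and 12.5% of the members, beside 6.37%, 12.3% and 12.4% of all genes. In both comparisons with WT these shares are near the background in the fit without a replicate block. Same-numbered CAMK and WT libraries met a rule for pairing given below, though the labels state no pairs. With a block for replicate number, CAMK against WT had 15 members (46.9%) at that p. Of these 14 were lower and 1 higher, beside 9.01% of all genes lower and 11% higher. The fit with the block also held CX3CL1-ct 1 to 3, so its spread and block effects rest partly on them. Pairs with CX3CL1-ct did not meet the rule.

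CX3CL1-ct against CAMK asks what the transgene adds to the driver. Here 26 of 32 members had a higher mean of log2 values in CX3CL1-ct, and the median difference was 0.09. Among all genes tested 63.2% were higher and the median was 0.04. All 7 members with an unadjusted p under 0.05 were higher: the transcription factors Tfap2c and Pax6, the intermediate filament gene Nes, and the astrocyte genes Sparcl1, Gjb6, Glul and Slc1a3. Of all genes 5.33% were higher and 1.04% lower at that p, and 2.96% and 2.50% with median-of-ratios scaling, where 5 members were higher and 0 lower. The adjusted test called 0 members and 0.0606% of all genes.

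Tfap2c, a transcription factor of progenitors that give rise to intermediate progenitors, was at 0.569, 0.392 and 0.501 FPKM in CAMK and 1.33, 1.30 and 1.44 in WT. Its CX3CL1-ct values ran from 0.584 to 2.70 with a median of 1.67. Every CX3CL1-ct library was above all CAMK libraries, with CX3CL1-ct 5 and 6 just above them. The difference from CAMK was 0.72 (SE 0.25, 95% interval 0.17 to 1.27, limma adjusted p = 0.725). Tfap2c and Sparcl1 were the 2 members whose CX3CL1-ct libraries all lay above CAMK, as did 2.78% of all genes, while no member and 0.527% of all genes had all of them below.

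Pax6, a transcription factor that keeps radial glia in their state, was at 3.40, 4.84 and 4.06 FPKM in CAMK and 4.29, 5.52 and 4.59 in WT. Among CX3CL1-ct libraries it ran from 4.10 to 9.10 with a median of 6.93. Its CX3CL1-ct values fall into 2 ranges, 8.12 to 9.10 in libraries 1 to 3 and 4.10 to 5.74 in libraries 4 to 6, and the lower range overlaps both other groups. The difference from CAMK was 0.54 (SE 0.22, adjusted p = 0.739), and 0.17 with libraries 1 to 3 left out.

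The enzyme glutamine synthetase, Glul, was at 140, 127 and 140 FPKM in CAMK and 164, 129 and 142 in WT. The CX3CL1-ct range was 134 to 194, with a median of 177. CX3CL1-ct 1 to 3, at 187 to 194, were the highest of the 12, and CX3CL1-ct 5 lay within the CAMK range. The difference from CAMK was 0.31 (SE 0.12, adjusted p = 0.725), and 0.14 without libraries 1 to 3.

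Nes, the intermediate filament nestin, was at 8.70, 6.92 and 8.03 FPKM in CAMK and 8.71, 7.93 and 8.27 in WT. Across CX3CL1-ct it lay between 7.36 and 10.6, with a median of 9.96. The groups overlap through CX3CL1-ct 5, the lowest of its group. The difference from CAMK was 0.24 (SE 0.10, adjusted p = 0.772), and 0.12 without CX3CL1-ct 1 to 3.

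Sparcl1, a matrix protein that astrocytes secrete, was at 186, 162 and 172 FPKM in CAMK and 200, 136 and 168 in WT. In CX3CL1-ct it ranged from 198 to 221 with a median of 212. Its CX3CL1-ct values are the narrowest of any member, 1.11-fold from lowest to highest, and libraries 1 to 3 do not stand apart from the rest. The difference was 0.27 from CAMK (SE 0.10, adjusted p = 0.725) and 0.33 from WT (SE 0.10, adjusted p = 0.182). Without WT 2, which holds the lowest value, the difference from WT was 0.19. Without WT 1 it was 0.46 and passed (adjusted p = 0.0485).

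Leaving out CX3CL1-ct 1 to 3 took Tfap2c to 0.27 above CAMK, Slc1a3 from 0.19 to 0.13, Gjb6 from 0.68 to 0.59 and Sparcl1 from 0.27 to 0.23. Without those libraries the number of members at an unadjusted p under 0.05 was 2 (6.25%), 1 higher and 1 lower. The number was 1 (3.12%, higher) with them averaged as 1 library. It was 7 (21.9%) with all. Of all genes 2.64%, 3.36% and 6.37% were at that p in these fits, in that order. Leaving out single libraries moved the number of members both ways. It went to 3 without CAMK 2 (9.38%, all genes 4.04%) and to 11 without CX3CL1-ct 6 (34.4%, all genes 9.81%). It was 13 (40.6%, all genes 17.5%) with the replicate block, in which the CX3CL1-ct side rests on libraries 1 to 3.

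Markers of other tissue moved with this comparison as well. All 13 genes of the meninges and fibroblast list had higher means in CX3CL1-ct than in CAMK, with a median of 0.44, and so had all 13 genes of endothelium and pericytes, with a median of 0.11. Of these genes 0 passed the adjusted test. With the meninges list as a covariate the difference of Gjb6 was 0.20, of Glul 0.12, of Nes 0.10, of Slc1a3 0.07 and of Sparcl1 0.14. Pax6 was at 0.50 and Tfap2c at 0.40 in that fit. There 18 of the 32 members were higher, the median was 0.03, and at an unadjusted p under 0.05 there were 0 higher and 4 lower members. Of all genes 5.32% were higher and 1.55% lower at that p in the same fit.

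**Figure D3:**
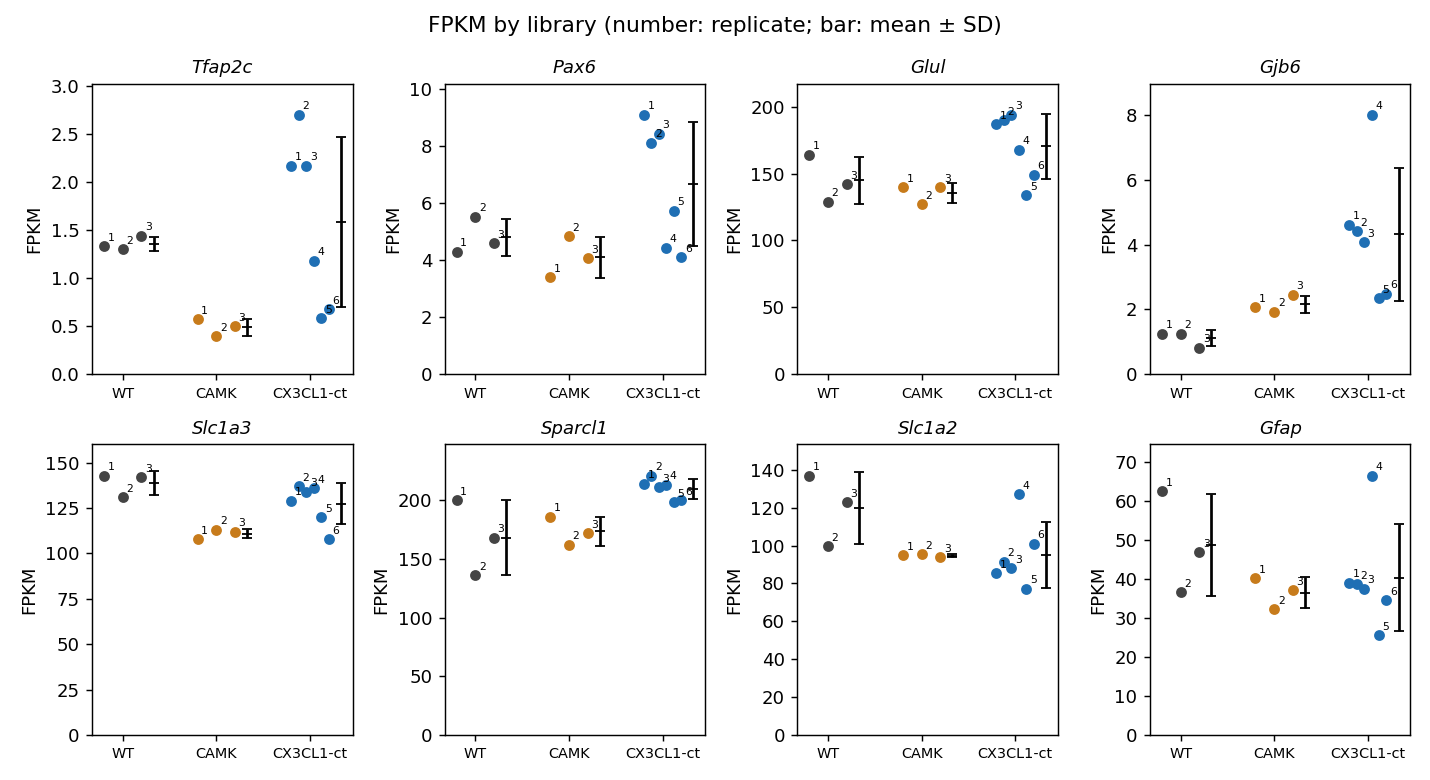
FPKM of 8 members in each library, numbered by replicate, with the mean ± SD of each group (n = 3, 3 and 6) beside the points and axes that start at 0. Pax6 and Tfap2c show CX3CL1-ct 1 to 3 above the other libraries of their group, and the CX3CL1-ct points of Gjb6 lie above those of WT.

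CX3CL1-ct against WT compares both alleles with none. In it 12 members were higher and 20 lower, with a median of -0.06, whereas 62.7% of all genes were higher and their median was 0.04. Gjb6 and Sparcl1 were higher, and Slc1a2 and Mlc1 lower, at an unadjusted p under 0.05. Of all genes 8.80% were higher and 3.49% lower at that p, and 5.15% and 5.44% with median-of-ratios scaling, where 2 members were higher and 5 lower. The count of 4 members was 2 (6.25%) without WT 3, CX3CL1-ct 1 or CX3CL1-ct 3, and 9 (28.1%) without CX3CL1-ct 4. Of all genes 8.94%, 10.6%, 10.1% and 12.7% were at that p in these fits, in that order. The adjusted test called 0 members and 0.454% of all genes.

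Gjb6, connexin 30 of astrocyte gap junctions, was at 1.25, 1.25 and 0.819 FPKM in WT and 2.07, 1.93 and 2.46 in CAMK. In CX3CL1-ct it ranged from 2.34 to 8.02 with a median of 4.25. Every CX3CL1-ct and every CAMK library lay above all WT libraries, as did 4.67% and 9.22% of all genes. No member had all CX3CL1-ct libraries below WT, and 1.38% of all genes did. The difference from WT was 1.26 in CX3CL1-ct (SE 0.26, 95% interval 0.71 to 1.82, unadjusted p = 0.000358, adjusted p = 0.0593) and 0.59 in CAMK (SE 0.30). From CAMK to CX3CL1-ct it was 0.68 (SE 0.26, adjusted p = 0.725). The value against WT has the smallest adjusted p of any member. Leaving out 1 library gave a difference of 1.10 to 1.38. It passed without CX3CL1-ct 4, 5 or 6 (adjusted p = 0.0257, 0.0256 and 0.0362) and did not pass without WT 1, 2 or 3 (0.102, 0.225 and 0.277) or CX3CL1-ct 1, 2 or 3 (0.141, 0.134 and 0.128). With CX3CL1-ct 1 to 3 left out it was 1.17 (adjusted p = 0.485).

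The list of meninges and fibroblasts moved beside Gjb6. It was highest in CX3CL1-ct 4 (3.65), then in CX3CL1-ct 1 to 3 (3.26 to 3.33), and lowest in the WT libraries. All 13 of its genes were higher in CX3CL1-ct than in WT, 5 of them past the adjusted threshold. Gjb6 is known in leptomeningeal cells as well as in astrocytes. With the list's mean as a covariate the difference of Gjb6 from WT was 0.27 (adjusted p = 0.604). In that fit the median of the members was -0.19, and Gfap (-1.25, adjusted p = 0.0219), Mt3 and Vim (-0.55, adjusted p = 0.0276) passed as lower. The groups differ in the list itself, so group and list cannot be told apart in it. Gja1, the other astrocyte connexin among the members, was at 34.6, 34.5 and 36.0 FPKM in WT, 33.1, 37.8 and 34.2 in CAMK, and 32.4 to 49.9 with a median of 40.6 in CX3CL1-ct. Its difference from WT was 0.20 (SE 0.10, 95% interval -0.02 to 0.43).

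**Figure D4:**
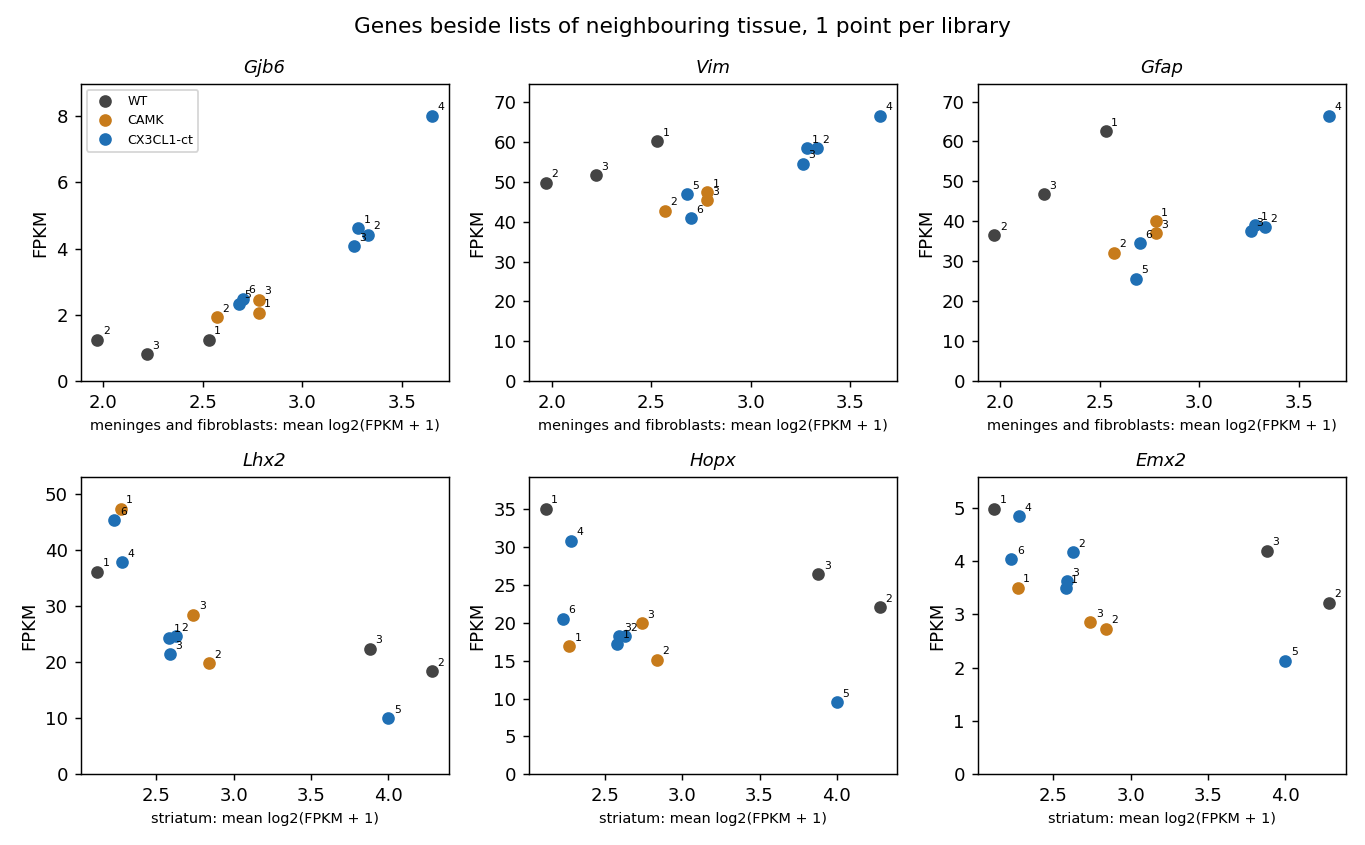
FPKM of 3 members (vertical axis, from 0) against the mean log2(FPKM + 1) of the meninges and fibroblast list (upper row), and of another 3 against the striatal list (lower row), with 1 numbered point per library. Gjb6 is highest where the meninges list is highest, in CX3CL1-ct 4, and Lhx2, Hopx and Emx2 are lowest in CX3CL1-ct 5, where the striatal list is at 4.0. In WT 2, where the striatal list is highest at 4.28, Lhx2, Hopx and Emx2 are at 18.4, 22.0 and 3.22 FPKM.

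Slc1a2, the main glutamate transporter of mature astrocytes, was at 137, 99.6 and 123 FPKM in WT and 95, 95.3 and 93.8 in CAMK. In CX3CL1-ct it ranged from 77.3 to 127 with a median of 89.8. The CAMK libraries lie within 2 FPKM of each other and below all WT libraries, while CX3CL1-ct overlaps WT. The difference from WT was -0.34 in CX3CL1-ct (SE 0.14, adjusted p = 0.354) and -0.33 in CAMK (SE 0.16).

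Mlc1, a membrane protein of astrocyte endfeet, was at 41.6, 37.4 and 40.0 FPKM in WT, 31.2, 34.9 and 34.3 in CAMK, and 30.9 to 40.9 with a median of 35.0 in CX3CL1-ct. CAMK does not overlap WT, and CX3CL1-ct does through library 4. The difference from WT was -0.18 in CX3CL1-ct (SE 0.08, adjusted p = 0.384) and -0.24 in CAMK (SE 0.09, adjusted p = 0.313).

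CAMK against WT shows what goes with the driver alone. It had 26 of 32 members lower, with a median of -0.17, against 49.5% of all genes lower and a median of 0.00. All CAMK libraries lay below all WT libraries for 14 members, or 43.8%, beside 8.80% of all genes. These were the transcription factors Sox9, Tfap2c, Hopx, Nfia, Nfib, Nr2e1 and Gli3, the radial glia genes Vim and Ttyh1, and the astrocyte genes Slc1a3, Mlc1, Aldoc, Slc1a2 and Mt3. The members are expressed by the same cells, so they are not independent of each other. At an unadjusted p under 0.05, 4 members were lower and 0 higher, beside 5.79% and 6.60% of all genes. The count of 4 was 2 (6.25%) without WT 1, WT 3 or CAMK 1. Of all genes 8.83% to 15.1% were at that p in these fits. When the 2 groups were fitted alone the count was 11 (34.4%), beside 12% of all genes. The adjusted test called 0 members and 0.358% of all genes.

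Slc1a3, the glutamate transporter GLAST of radial glia and astrocytes, was at 143, 131 and 142 FPKM in WT and 108, 113 and 112 in CAMK. In CX3CL1-ct it ranged from 108 to 137 with a median of 131. WT and CAMK are apart by more than their spread, and CX3CL1-ct covers the space between them. The difference of CAMK from WT was -0.32 (SE 0.09, 95% interval -0.50 to -0.13, adjusted p = 0.155). CX3CL1-ct was above CAMK by 0.19 (SE 0.08, adjusted p = 0.727). With a replicate block, CAMK differed from WT by -0.32 and passed (adjusted p = 0.0397).

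Sox9, a transcription factor of stem cells and astrocytes, was at 4.60, 5.19 and 4.65 FPKM in WT, 3.48, 3.50 and 3.73 in CAMK, and 3.56 to 5.24 with a median of 4.16 in CX3CL1-ct. Its CAMK libraries are below all WT libraries, at a difference of -0.35 (SE 0.11, adjusted p = 0.217). Tfap2c, with the values given above, was lower in CAMK than in WT by a difference of -0.67 (SE 0.29, adjusted p = 0.385). It passed with the replicate block (-0.67, adjusted p = 0.0437), a fit that rests partly on CX3CL1-ct 1 to 3.

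Beside Tfap2c, the list of intermediate progenitor genes, which holds Tfap2c itself, had a mean log2(FPKM + 1) of 2.46 to 2.81 in WT, 1.97 to 2.19 in CAMK and 1.84 to 2.74 in CX3CL1-ct. The 7 other genes of it that were tested all had lower means in CAMK than in WT, with a median of -0.47, and 0 passed the adjusted test. Of the 10 genes of neurons 9 were higher in CAMK than in WT, with a median of 0.24. The mean log2(FPKM + 1) of this list was 6.82, 6.30 and 6.55 in WT 1, 2 and 3 and 6.76 to 6.82 in CAMK, so the groups overlap through WT 1.

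Of the lists of tissue that borders the hippocampus, ependyma, choroid plexus and striatum moved in the same direction as the members. The meninges and fibroblast list moved the other way. Of its 13 genes 12 had higher means in CAMK than in WT (median 0.53), and 8 had all CAMK libraries above WT. The list of ependyma, the cells that line the ventricle, had a mean log2(FPKM + 1) of 2.09 to 2.17 in WT and 1.49 to 1.85 in CAMK, so the groups do not overlap. Of its 10 tested genes 9 had lower means in CAMK, and 6 had all CAMK libraries below WT. For the choroid plexus 10 of 11 genes were lower (median -0.52), with list means of 1.96 to 3.33 in WT and 1.41 to 2.71 in CAMK. All 18 striatal genes were lower (median -0.62), with list means of 2.12 to 4.28 in WT and 2.27 to 2.84 in CAMK. Of the genes of the ependyma, choroid plexus and striatal lists 0 passed the adjusted test, and 4, 1 and 2 were lower at an unadjusted p under 0.05. The part of ependyma, choroid plexus, intermediate progenitors and neurons in the members' values was not tested.

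**Figure D5:**
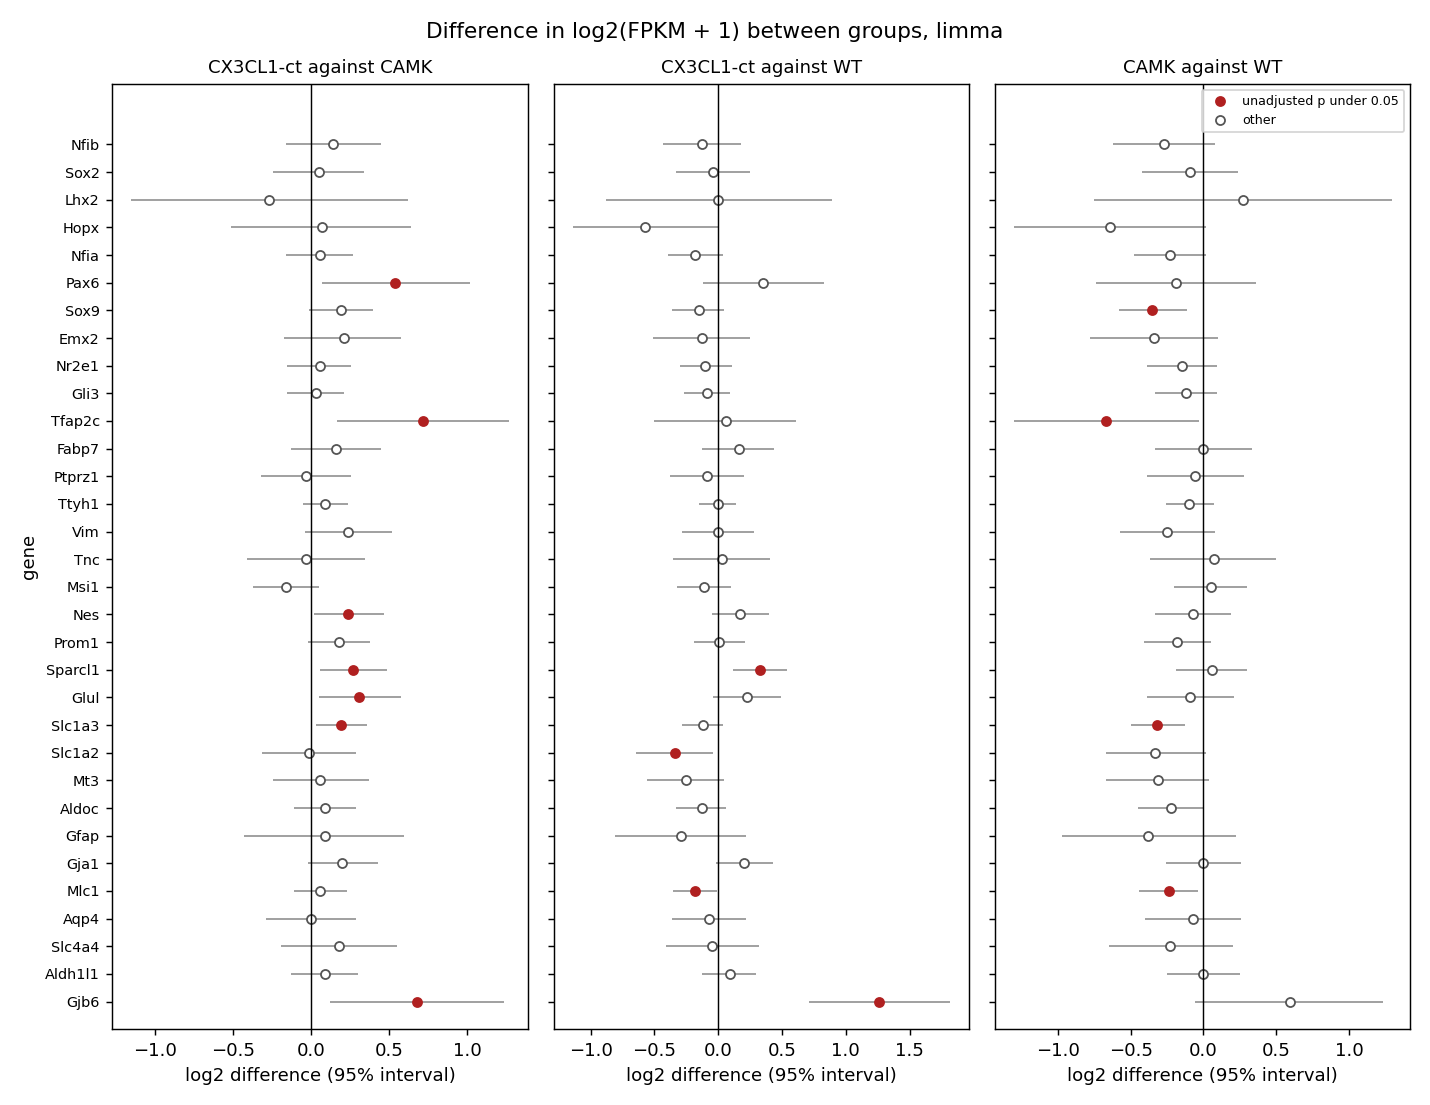
Difference in log2(FPKM + 1) of each of the 32 genes in the 3 comparisons, with 95% intervals from limma, and filled red points where the unadjusted p is under 0.05. Most points lie right of 0 in CX3CL1-ct against CAMK (26 of 32) and left of 0 in CAMK against WT (26 of 32). Both use the same CAMK libraries.

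The 2 comparisons with CAMK share its 3 libraries, so a low value in them makes a member higher in the one and lower in the other. In CAMK 1 and CX3CL1-ct 5 the most members were at their lowest of the 12 libraries, 9 and 10, and in CX3CL1-ct 4 and WT 1 the most were at their highest, 8 and 7. Leaving out 1 library at a time gave medians of 0.08 to 0.14 for CX3CL1-ct against CAMK and -0.18 to -0.11 for CAMK against WT.

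The textbook markers not named so far did not differ past the test. Sox2, a transcription factor of stem cells, was at 28.0, 35.9 and 33.6 FPKM in WT, 25.2, 34.4 and 32 in CAMK and 25.8 to 40.2 with a median of 30.3 in CX3CL1-ct, with full overlap. The deposited locus of Sox2 also spans the noncoding gene Sox2ot. Fabp7 was at 590, 664 and 673 FPKM in WT, 526, 693 and 719 in CAMK, and 550 to 807 with a median of 749 in CX3CL1-ct. The 95% interval of its CX3CL1-ct difference from CAMK was -0.13 to 0.45.

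Vim, the intermediate filament vimentin, was at 60.2, 49.8 and 51.7 FPKM in WT, 47.4, 42.7 and 45.4 in CAMK and 40.9 to 66.6 with a median of 56.4 in CX3CL1-ct. CAMK lies just below WT, by a difference of -0.25 (SE 0.15). With the meninges list as a covariate this was -0.53 (adjusted p = 0.00695). The list itself was at 1.97 to 2.53 in WT and 2.57 to 2.78 in CAMK, so group and list cannot be told apart in that fit. Vim is also a gene of meningeal and vascular cells, and their part in its values was not tested.

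Gfap, the intermediate filament of astrocytes and of dentate stem cells, was at 62.5, 36.6 and 46.8 FPKM in WT, 40.1, 32.2 and 37.1 in CAMK, and 25.6 to 66.5 with a median of 38.0 in CX3CL1-ct. WT 1 and CX3CL1-ct 4 are high and the groups overlap. The difference of CAMK from WT was -0.38 (SE 0.27), and -0.18 without WT 1.

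Aqp4, the water channel of astrocyte endfeet, was at 33.3, 30.9 and 33.9 FPKM in WT, 23.9, 36.2 and 34.7 in CAMK and 26.5 to 36.7 with a median of 30.1 in CX3CL1-ct, with overlap in every pair of groups. Aldh1l1, a folate enzyme of astrocytes, was at 23.2, 21.5 and 22.6 FPKM in WT, 21.8, 22.7 and 22.8 in CAMK and 18.1 to 26.3 with a median of 25.4 in CX3CL1-ct. The 95% interval of its CAMK difference from WT was -0.25 to 0.25. Aldoc, an aldolase of astrocytes, was at 90.8, 72.4 and 79.7 FPKM in WT, 70.2, 65.1 and 71.5 in CAMK and 67.7 to 87.7 with a median of 70.9 in CX3CL1-ct. CAMK and WT do not overlap, but WT 2 and CAMK 3 differ by under 1 FPKM.

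The other 14 members are given by group means. Among the transcription factors, Hopx, of quiescent stem cells, averaged 27.8 ± 6.63 FPKM in WT (SD, n = 3), 17.3 ± 2.44 in CAMK (n = 3) and 19.1 ± 6.86 in CX3CL1-ct (n = 6), a difference from WT of -0.64 in CAMK (SE 0.30) and -0.57 in CX3CL1-ct (SE 0.26). Lhx2 and Emx2, which pattern the cortex and hippocampus, averaged 25.7 and 4.13 FPKM in WT, 31.9 and 3.03 in CAMK and 27.3 and 3.71 in CX3CL1-ct. Lhx2 had the widest 95% intervals of all members, from -1.15 to 0.62 between CX3CL1-ct and CAMK. Hopx, Lhx2 and Emx2 were each at their lowest of 12 libraries in CX3CL1-ct 5, at 9.52, 9.99 and 2.13 FPKM, where the striatal list was at 4.0. In WT 2 the list was higher, at 4.28, and these genes were at 22.0, 18.4 and 3.22 FPKM. In WT 3, with the list at 3.88, they were at 26.4, 22.4 and 4.19 FPKM. The libraries with less of the list ran from 15.1 to 35.0, 19.8 to 47.4 and 2.73 to 4.98 FPKM. The part of striatal tissue in these values was not tested beyond the covariate, under which Emx2 and Hopx passed as lower in CAMK than in WT.

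Nfia and Nfib, which switch progenitors towards glia, averaged 19.5 and 68.3 FPKM in WT, 16.4 and 56.3 in CAMK and 17.3 and 63.2 in CX3CL1-ct. Nr2e1, which keeps adult stem cells dividing, and Gli3, of the hedgehog pathway, averaged 2.36 and 2.25 in WT, 2.02 and 1.99 in CAMK and 2.15 and 2.05 in CX3CL1-ct. These 4 were lower in CAMK than in all WT libraries, with differences of -0.12 to -0.27.

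Among the surface and RNA-binding genes, Prom1 averaged 4.28, 3.68 and 4.30 FPKM in WT, CAMK and CX3CL1-ct, and Msi1 11.2, 11.7 and 10.4. Ptprz1 averaged 128, 124 and 121, the matrix protein Tnc 38.1, 39.3 and 39.1, and Ttyh1 67.8, 63.4 and 67.7. Of the astrocyte genes, the bicarbonate transporter Slc4a4 averaged 25.7, 21.9 and 25.1 FPKM, and the metal-binding protein Mt3 114, 91.1 and 96.5. Of these 7 only Ttyh1 and Mt3 had CAMK and WT libraries that do not overlap.

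Other genes of the same cells came from 2 further lists. Of 30 other radial glia and progenitor genes, 26 were higher in CX3CL1-ct than in CAMK (median 0.11), 19 lower in CX3CL1-ct than in WT (median -0.10) and 24 lower in CAMK than in WT (median -0.18). Of 27 other astrocyte genes tested, 18 were higher, 17 lower and 19 lower in the same comparisons, with medians of 0.05, -0.08 and -0.14. That is 86.7%, 63.3% and 80.0% of the first list and 66.7%, 63.0% and 70.4% of the second. Among all genes tested 63.2%, 37.3% and 49.5% went the same way, with medians of 0.04, 0.04 and 0.00. None of the genes of the 2 lists passed the adjusted test. The smallest adjusted p-values were those of Cd9, a tetraspanin of the cell surface, which averaged 43.3 FPKM in WT, 30.3 in CAMK (-0.50, SE 0.10, adjusted p = 0.0572) and 32.7 in CX3CL1-ct (-0.39, SE 0.08, adjusted p = 0.0784).

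In CAMK against WT the next were the chemokine Cxcl14 (-0.87, adjusted p = 0.0828), the transcription factor Sox8 (-0.37, adjusted p = 0.0959) and the sphingosine phosphate receptor S1pr1 (-0.30, adjusted p = 0.0964), all lower, while the proteoglycan Gpc5 was at 0.67 (adjusted p = 0.213). Zbtb20, a transcription factor of the developing hippocampus, differed by -0.82 (adjusted p = 0.131), the Notch target Hey1 by -0.25 (adjusted p = 0.244) and Phgdh, an enzyme of serine synthesis, by -0.29 (adjusted p = 0.255). In CX3CL1-ct against WT, Zbtb20 (-0.68), Hey1 (-0.23), the receptor Fgfr3 (-0.33), Sox8 (-0.27), Cxcl14 (-0.54), the potassium channel Kcnj10 (-0.27) and the amino acid transporter Slc7a10 (-0.33) had adjusted p-values of 0.144 to 0.339. In CX3CL1-ct against CAMK, Rest (0.24), Notch2 (0.33), Etv4 (0.15), Axl (0.20), S1pr1 (0.16), Fgfr2 (0.22), Cxcl14 (0.33) and Atp1b2 (-0.20) had adjusted p-values of 0.725 to 0.775.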

How the data were processed

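Gene expression was deposited by the authors as FPKM for 29454 genes in 12 libraries. Reads were processed with Bowtie, TopHat, Cuffdiff and Cufflinks on mm10, per the submitters' processing notes, with versions not given in the sources used here. Per the labels' protocols, libraries were made with a stranded total RNA kit from 100 ng or more of RNA whose integrity number was 7.0 or higher. Whether strand was used in counting, how libraries were scaled, sex, litter and batch are not given in the sources used here. Exons of 10 members overlap another annotated gene (Aldh1l1, Emx2, Gli3, Glul, Hopx, Nfia, Prom1, Slc1a2, Tnc and Ttyh1, in GENCODE M21), so their values are uncertain. Depth is unknown, as the table holds no counts.

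FPKM were taken as log2(FPKM + 1). Genes at 1 FPKM or more in at least 3 libraries were tested (16503, with all 32 members). limma 3.58.1 in R 4.3.3 fitted 1 model of 3 group means with eBayes trend, and two-sided p-values were adjusted by Benjamini-Hochberg over all genes, at a threshold of 0.05. The steps were tested on simulated data. Tables and figures used Python 3.11.15, pandas 2.3.3, numpy 2.4.6 and matplotlib 3.10.9. Groups do not overlap where every library of one lies above every library of the other. Motifs were searched as exact letters.

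The members, the lists and the tests were chosen with earlier results of these data known. All members are named. Values by library are given for members with an unadjusted p under 0.05 in any comparison and for 12 textbook markers, and up to 4 genes of each other list and comparison are named by smallest p. Alternatives were another pseudocount, no filter, median-of-ratios scaling, a replicate block, the 2 groups alone, a robust prior, the striatal or meningeal list as a covariate, and each library left out. After seeing the data, CX3CL1-ct 1 to 3 were also averaged or left out. Running the alternatives on the members given by group means was also chosen after seeing the data. Replicate numbers 1 to 3 occur in all groups. The pairing was checked on the deviations from group means: same-numbered CAMK and WT libraries correlated by 0.236, 0.163 and 0.100 over genes, which was taken as paired (each over 0.1), while pairs with CX3CL1-ct did not meet this rule.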

Additional observations from a re-analysis of the deposited data

Results flagged for a closer look

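Among the 6 CX3CL1-ct libraries, 3 of the 32 members had 1 library far from the other 5, by Dixon's ratio of the gap to the range at the 95% level. Chance gives this in about 1 in 20 groups. Gfap was at 66.5 FPKM in CX3CL1-ct 4, with the others at 25.6 to 39.0 (gap over range 0.672). Nfib was at 41.9 FPKM in CX3CL1-ct 5, with the others at 63.9 to 73.9 (0.686). Aldh1l1 was at 18.1 FPKM in CX3CL1-ct 6, with the others at 23.3 to 26.3 (0.633).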

How the results depend on the processing

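No called result changed sign, as no member was called. Over all 32 members there were 1696 results of single members under the alternatives, of which 1671 kept their side of the threshold and 25 came to pass it, and 135 changed sign without a call. The number of members called rose from 0 under these settings. With the replicate block it was 4 in CX3CL1-ct against CAMK (Tfap2c, Pax6, Glul, Gjb6), 3 in CX3CL1-ct against WT (Gjb6, Glul, Pax6) and 2 in CAMK against WT. Calls over all genes rose with the block as well, to 1.04%, 3.27% and 2.97%. In the main fit they were 0.0606%, 0.454% and 0.358%. In both comparisons of CX3CL1-ct that block rests on CX3CL1-ct 1 to 3, since numbers 4 to 6 have no partner. In CAMK against WT its spread and block effects also rest partly on CX3CL1-ct 1 to 3. With a pseudocount of 0.1 the number of members called was 1 in CX3CL1-ct against WT (Gjb6, 1.78, adjusted p = 0.0411), with 0.442% of all genes called. With the striatal list as a covariate it was 2 in CAMK against WT, with 1.37% of all genes called. With the meningeal list it was 3 in CX3CL1-ct against WT, where the median of the members moved to -0.19, and 6 in CAMK against WT (Vim, Slc1a3, Gfap, Aldoc, Hopx and Mt3). Of all genes 0.570% and 1.95% were called in these 2 comparisons. The groups differ in the meningeal list itself, so group and list cannot be told apart there. Leaving out 1 library gave 0 to 1 members in CX3CL1-ct against WT and 0 in the others. All genes called ran from 0.158% to 0.957% in CX3CL1-ct against WT in these fits. The cause of these changes was not tested. Of 53 medians under the alternatives, 52 moved by less than the pooled spread within groups, 0.084.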

Other observations

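Of 13 annotated genes whose exons overlap a member's, 10 are in the table, and nearly all are low. The antisense gene Emx2os was at 0.755 to 1.75 FPKM, lowest in CX3CL1-ct 5 as Emx2 was. E130114P18Rik, opposite Nfia, was at 3.99 to 6.77 FPKM. Sox2ot, which lies across Sox2, was at 16.6 to 33.9 FPKM, highest in CX3CL1-ct 5 as Sox2 was. Without strand in the counting, reads of a gene and its antisense partner cannot be told apart. The deposited loci of 6 members were over 2 times as long as the annotated gene (Sox2, Gfap, Pax6, Emx2, Glul and Tnc), and what this does to their FPKM was not tested.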
